A study of Mus musculus with 32 samples.

Results

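The 8 genes described here are Lgals2, Isx, Osr2, Fam183b, Nepn, Gpx3, Anxa5 and 2610528A11Rik, out of 23154 genes in the expression files. They were chosen by their measured level in the epithelium of the developing mouse intestine, or by the change of that level from day to day, being large. Their intestinal epithelial values, and how these compare with other cells, are therefore given below as a description with no test. The 8 genes were tested only in comparisons of cells that the choice did not use, namely epithelial cells of liver, lung and skin and mesenchymal cells. The fit between cell types and organs, however, pooled its standard error (SE) over all 4 organs, intestinal epithelium included. Its SE and p for the 8 genes therefore also hold the spread of the values that chose them. Other genes were tested in intestinal epithelium too.

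Single cells were taken from organs of 7 C57BL/6J mouse embryos, 3 at embryonic day (E) 9.5, 2 at E10.5 and 2 at E11.5, with no treatment or mutation. In total 1916 cells of 8 organs were sequenced as 32 samples, and the annotation of the study gave 109 epithelial and 74 mesenchymal cells in intestine, 47 and 76 in liver, 52 and 125 in lung, and 78 and 77 in skin. The labels gave E9.5 embryo 2 as female and the other 6 embryos as male, and the sequencer as HiSeq 2500 for E9.5 embryos 1 and 2 and HiSeq 4000 for the other 5. Of E9.5 embryo 3, skin, intestine and somite were pooled in 1 sample and lung and liver in another. For each organ, both E10.5 embryos shared 1 sample, as did both E11.5 embryos, while E9.5 embryos 1 and 2 had samples of their own. No sample held more than 1 day, so sample and day cannot be told apart in the slopes. E9.5 embryo 1 had no lung or skin sample, mesenchymal liver cells came from the 3 E9.5 embryos alone, and at E11.5 liver epithelial cells came from embryo 2. Columns that repeated another cell exactly (14 in all, 3 of them epithelial) were counted once.

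The embryo was taken as the replicate. Its value is the mean over at least 3 cells of log2(TPM/10 + 1), where TPM, as the authors name it, counts the molecules (UMIs) of a gene in every 1000000 UMIs that the cell held. A cell expresses a gene when this value is at least 1. Because the values hold no gene length, the levels of different genes are not compared. A gene was called when its adjusted p was under 0.05 (limma, Benjamini-Hochberg over all genes tested) and its slope was at least 0.5 log2 units per day, or its difference at least 1 log2 unit, in absolute value.

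The intestinal epithelium arises from the endoderm of the gut tube, and during these days it is still a simple proliferating tube, before villi form and before digestive enzymes are made. Region along the gut is set by transcription factors such as Cdx2 and by the Hox genes, and the epithelial program is driven by factors of the Hnf1, Hnf4, Gata and Foxa families. The surrounding mesenchyme supplies signals to the epithelium and gives rise to connective tissue and smooth muscle.

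The 109 intestinal epithelial cells carried the markers of their label. The 7 epithelial markers (Epcam, Cdh1, Cldn6, Cldn7, Krt8, Krt18 and Spint2) summed to between 4512 and 6938 TPM per embryo, and the 7 mesenchymal markers to between 15.38 and 75.35 TPM. The 5 endothelial markers were at 0 except in E9.5 embryo 2 (2.416 TPM). In mean TPM, globin and other erythroid markers stood apart in E10.5 embryo 2, at 2153 TPM against at most 115 in the other 6 embryos. As means of log2(TPM/10 + 1) they stood less apart. Beside E9.5 embryo 2, Hbb-y was at 2.95 against 2.04, Hbb-bh1 at 2.19 against 1.64 and Hba-x at 2.09 against 2.17. Cells of E9.5 embryo 2 were the most deeply sequenced, with a median of 1047708 UMIs per cell against 222635 to 406733 in the others, and depth across the 638 cells of the 4 organs ran from 22132 to 2404946 UMIs.

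The 8 genes are protein-coding and lie on 6 chromosomes of GRCm38 (GENCODE M21). Lgals2 lies on chr15:78850860-78855529, minus strand, and Osr2 on the same chromosome at chr15:35296098-35303305, plus strand. Gpx3 (chr11:54902453-54910377, plus strand) and Fam183b (chr11:58792797-58801960, minus strand) share chromosome 11. Isx is at chr8:74873173-74893506 (plus), Nepn at chr10:52388972-52404625 (plus), Anxa5 at chr3:36448923-36475894 (minus) and 2610528A11Rik at chr14:37102140-37114022 (minus).

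RefSeq (GRCm38.p6) gave start sites and the 250 bases before them for 7 of the 8 genes. Of the letters searched on both strands, CAAAGTCC (a form of the site bound by Hnf4 factors), TTTATGG (a form of the Cdx site) and TATAAA (the TATA box), 3 genes held a match, and their sequences are shown because they belong to the gene with the steepest positive slope in the intestine and to members with negative slopes. Isx, Gpx3, Anxa5 and Fam183b held none. These letters were chosen after the sequences had been looked at, and a match describes the letters and not a bound site. Each sequence is printed 5′ to 3′ on the strand of its gene, with matches in capitals.
Lgals2, chr15:78855530-78855779, minus strand: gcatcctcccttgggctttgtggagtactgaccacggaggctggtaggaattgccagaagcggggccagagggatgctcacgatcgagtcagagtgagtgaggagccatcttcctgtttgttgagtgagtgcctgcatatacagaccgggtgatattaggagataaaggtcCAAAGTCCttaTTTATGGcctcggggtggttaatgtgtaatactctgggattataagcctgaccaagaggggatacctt
Nepn, chr10:52391358-52391607, plus strand: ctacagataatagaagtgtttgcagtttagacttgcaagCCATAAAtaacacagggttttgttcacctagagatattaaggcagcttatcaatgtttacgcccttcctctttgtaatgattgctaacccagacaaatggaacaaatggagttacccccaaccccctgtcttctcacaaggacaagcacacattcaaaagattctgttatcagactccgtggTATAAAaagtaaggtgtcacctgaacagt
2610528A11Rik, chr14:37110102-37110351, minus strand: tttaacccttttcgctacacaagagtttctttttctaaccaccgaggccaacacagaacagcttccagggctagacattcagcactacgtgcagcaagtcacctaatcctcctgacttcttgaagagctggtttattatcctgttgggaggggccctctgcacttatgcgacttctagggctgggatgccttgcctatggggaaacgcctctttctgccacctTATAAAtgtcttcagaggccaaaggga
Lgals2 held CAAAGTCC at bases 79 to 72 before its start and TTTATGG at bases 68 to 62. Nepn held the Cdx letters on the other strand (CCATAAA, bases 211 to 205) and TATAAA at bases 29 to 24, and 2610528A11Rik held TATAAA at bases 27 to 22. Among 32851 RefSeq promoters of this length, CAAAGTCC was in 1.196%, TTTATGG in 2.426% and TATAAA in 12.368%. For Nepn and 2610528A11Rik the RefSeq start lies inside a longer GENCODE transcript, and the printed window falls within its first intron.

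In the intestinal epithelium, Lgals2, Isx, Osr2 and Fam183b had higher means at E11.5 than at E9.5, and Nepn, Gpx3, Anxa5 and 2610528A11Rik had lower ones. The changes were large against the rest of the transcriptome: among 12374 genes fitted, Lgals2, Isx and Osr2 had the 3 steepest positive slopes and Nepn, Gpx3 and Anxa5 the 3 steepest negative ones, with Fam183b 14th and 2610528A11Rik 12th from their ends. These ranks follow from the choice of the genes. Of all genes, 0.655% were called, 0.251% higher (31 genes) and 0.404% lower (50 genes).

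**Figure D1:**
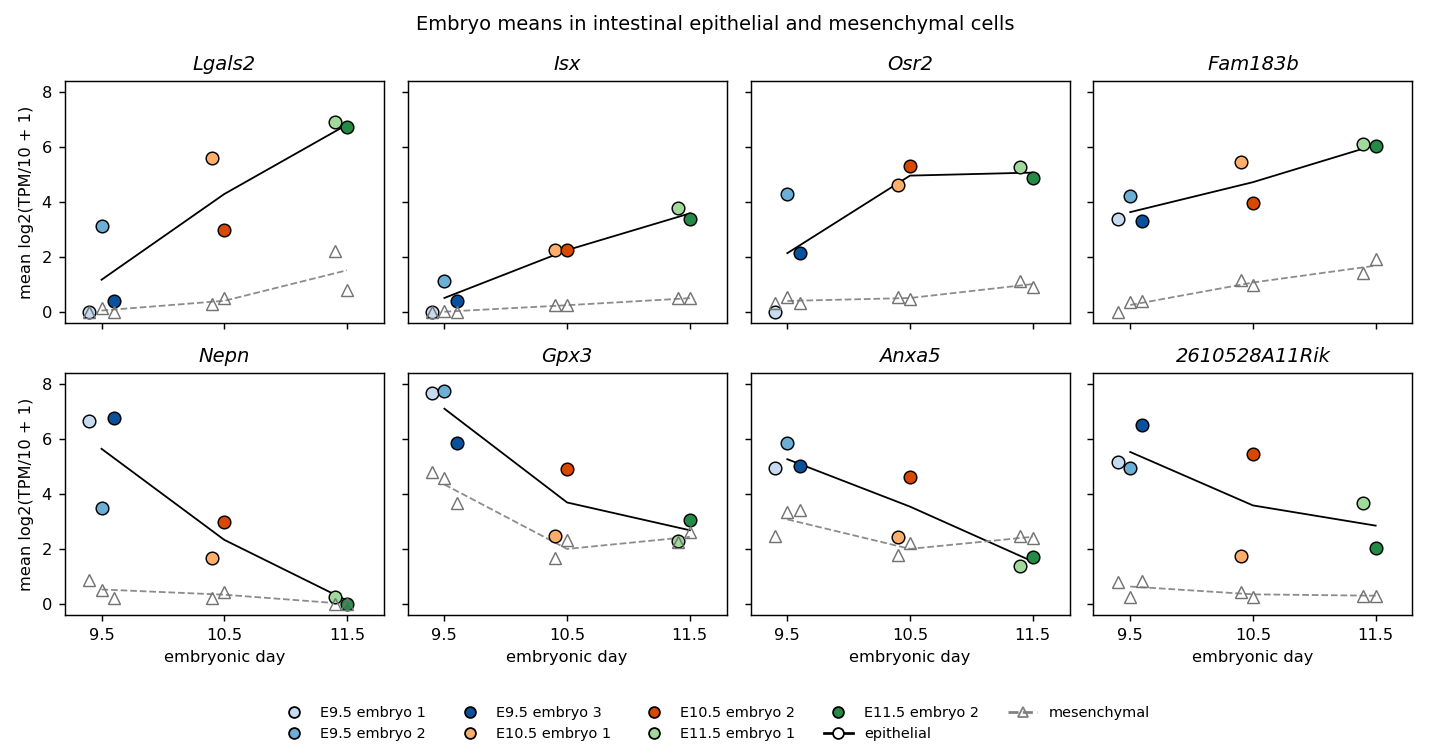
Mean log2(TPM/10 + 1) of each gene (y axis) by embryonic day (x axis) in intestinal epithelial cells (filled circles, 1 per embryo, coloured by embryo) and mesenchymal cells (open triangles), with points of a day set side by side and lines through the means of each day. The upper 4 genes are higher at E11.5 than at E9.5 in the epithelium, the lower 4 are lower, and the mesenchymal values of Gpx3 and Anxa5 lie close to the epithelial ones at E11.5.

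Lgals2 encodes galectin-2, a lectin that binds galactosides. Its epithelial level was 0, 3.12 and 0.38 in E9.5 embryos 1, 2 and 3, 5.59 and 2.98 at E10.5, and 6.89 and 6.73 at E11.5. In mean TPM these were 0, 155.4 and 22.58, then 782.2 and 107.8, then 1249 and 1211. Both E11.5 embryos stood above every younger one, while E9.5 embryo 2 and E10.5 embryo 2 had nearly the same log2 level. The described slope was +2.84 log2 units per day (SE 0.35). The share of cells that expressed Lgals2 was 51% at E9.5 (25 of 49, Wilson 95% interval 37.5 to 64.4), 86.7% at E10.5 (13 of 15) and 100% at E11.5 (45 of 45, 92.1 to 100). Intervals of shares cover counting error only, and not the spread between embryos.

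Isx is the intestine-specific homeobox factor, known to repress genes of carotenoid and vitamin A uptake. It stood at 0, 1.12 and 0.40 at E9.5, at 2.26 and 2.24 a day later, and at 3.77 and 3.40 at E11.5. The 3 days did not overlap. Expressing cells went from 26.5% (13 of 49) to 66.7% (10 of 15) and 95.6% (43 of 45), and the slope was +1.55 per day (SE 0.23).

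Osr2, a zinc finger factor of the odd-skipped family known from palate, limb and kidney development, was at 0, 4.28 and 2.13 at E9.5, 4.61 and 5.31 at E10.5, and 4.86 to 5.27 at E11.5. Thus the later 2 days overlapped, and the E9.5 embryos were all lower but far apart. Already at E9.5, 79.6% of the cells (39 of 49) expressed Osr2, none of them from the 5 cells of embryo 1. The slope of +1.55 per day (SE 0.38) rested in large part on that embryo and was 0.93 without it.

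Fam183b is known mainly by its sequence family. It was present from the start, at 3.37, 4.22 and 3.29 at E9.5, 5.47 and 3.97 at E10.5, and 6.11 and 6.04 at E11.5. The E11.5 embryos were highest, whereas E10.5 embryo 2 lay among the E9.5 values. Expressing cells made up 81.6% (40 of 49), 93.3% (14 of 15) and 100% (45 of 45), and the slope was +1.22 per day (SE 0.22).

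Among the genes with negative slopes, Nepn encodes nephrocan, a secreted leucine-rich repeat protein known as an inhibitor of TGF-beta signalling and as a gene of the early gut endoderm. Its level was 6.65, 3.51 and 6.79 at E9.5, 1.68 and 2.99 at E10.5, and 0.24 and 0.01 at E11.5. In mean TPM, E9.5 embryo 3 held 2398 and the E11.5 embryos 4.92 and 0.0913. The days did not overlap, and E9.5 embryo 2, the embryo with the most Lgals2 of its day, had the least Nepn. Expressing cells were 87.8% at E9.5 (43 of 49), 46.7% at E10.5 (7 of 15) and 4.44% at E11.5 (2 of 45, Wilson 95% interval 1.23 to 14.8), with a slope of −2.79 per day (SE 0.34).

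Gpx3, the secreted glutathione peroxidase that reduces peroxides outside the cell, was at 7.68, 7.76 and 5.87 at E9.5, 2.48 and 4.90 at E10.5, and 2.30 and 3.06 at E11.5. E9.5 stood clear of the later days, which overlapped. Gpx3 was still widely present at the end: 80.0% of the cells (36 of 45) expressed it at E11.5, against 98.0% (48 of 49) at E9.5. The slope was −2.28 per day (SE 0.31).

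Anxa5, a calcium-dependent protein that binds phosphatidylserine in membranes, was at 4.95, 5.84 and 5.02 at E9.5, 2.45 and 4.63 at E10.5 and 1.38 and 1.70 at E11.5. All 3 days were separate. Expressing cells made up 98.0% (48 of 49), 86.7% (13 of 15) and 48.9% (22 of 45), and the slope was −1.85 per day (SE 0.26).

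For 2610528A11Rik, which RefSeq also lists as Gpr15l, a peptide ligand of the receptor Gpr15, the E10.5 embryos stood far apart. It was at 5.16, 4.94 and 6.5 at E9.5, 1.73 and 5.44 at E10.5, and 3.68 and 2.02 at E11.5. E10.5 embryo 1 was the lowest of all embryos and E10.5 embryo 2 was above 2 of the E9.5 embryos, so the days overlapped. The slope was −1.38 per day (SE 0.35), and 68.9% of the cells (31 of 45) still expressed the gene at E11.5.

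E10.5 embryo 2 was nearer to the E9.5 embryos than E10.5 embryo 1 was in 6 of the 8 genes: it was lower in Lgals2 and Fam183b and higher in Nepn, Gpx3, Anxa5 and 2610528A11Rik, with nearly the same Isx and more Osr2. It was also the embryo with 2153 TPM of erythroid markers in these cells. Whether these move together was not tested.

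The E9.5 embryos differed among themselves. E9.5 embryo 1 had Lgals2, Isx and Osr2 at 0 in its 5 cells, with Cdx2 at 3.62, Hoxa10 at 3.73, Hoxd10 at 1.47 and Osr1 (the sister factor of Osr2) at 3.20. In embryos 2 and 3 these stood at 2.06 and 1.19 (Cdx2), 0.01 and 0.75 (Hoxa10), 0 and 0.33 (Hoxd10), and 0.14 and 0.31 (Osr1). Hoxa10 and Hoxd10 are expressed toward the hind end of the gut, and the part of position along the gut in the Osr2 and Lgals2 values of this embryo was not tested. With cells thinned to 100000 UMIs (44 of the 49 E9.5 cells kept), Lgals2 at E9.5 was 0, 3.15 and 0.51, close to the values at full depth. Thinned shares of expressing cells at E9.5, E10.5 and E11.5 were 54.6%, 85.7% and 100% for Lgals2, and 86.4%, 50% and 5% for Nepn.

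Over all days most single cells expressed only 1 of the early and the late gene, and most cells with both were from E9.5 embryo 2. Of the 52 cells with Nepn, however, 29 also expressed Lgals2. Counts over all days also hold the change over days for which both genes were chosen. Of the 109 cells, 54 expressed Lgals2 without Nepn, 23 Nepn without Lgals2, 29 both and 3 neither. Of the 29 cells with both, 21 were among the 31 cells of E9.5 embryo 2. In E9.5 embryo 1 all 5 cells expressed Nepn alone, as did 12 of 13 cells in E9.5 embryo 3. At E10.5, 2 of 8 and 3 of 7 cells held both, and at E11.5, 2 of 22 and 0 of 23. The embryo with most of the cells that held both genes was thus 1 of the 3 E9.5 embryos. It differed from the others of that day also in sequencing depth and sex.

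**Figure D2:**
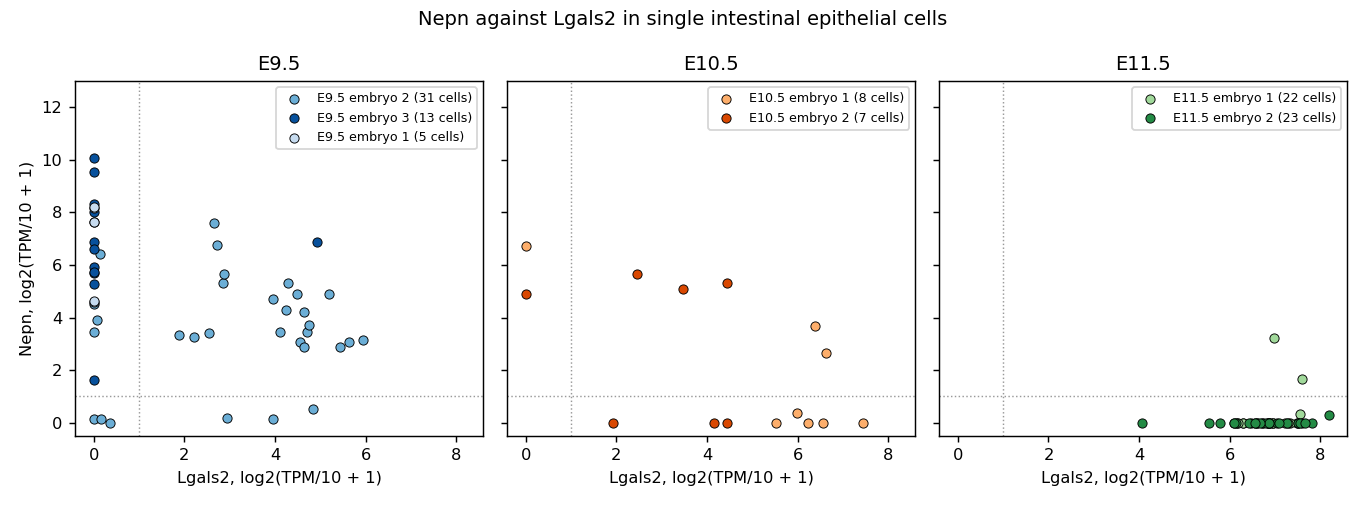
Nepn (y axis) against Lgals2 (x axis), both as log2(TPM/10 + 1), in single intestinal epithelial cells at E9.5, E10.5 and E11.5, 1 point per cell, coloured by embryo, with dotted lines at the level of 1 that counts as expressed. Cells of E9.5 embryos 1 and 3 line the left edge, cells of E9.5 embryo 2 spread over the upper right (21 of 31 with both genes), and the E11.5 cells lie along the bottom.

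The study divided most of these cells into an early and a late cluster. In the early cluster (55 cells) mean Lgals2 was 2.15, Isx 1.01 and Nepn 4.56, and in the late cluster (52 cells) they were 6.72, 3.41 and 0.34. The clusters were made from the same expression values, so this is a description only.

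Relatives of the 8 genes from the same protein families were tested in these epithelial cells, where 0.655% of all genes were called. Of the galectins 4 were tested, of the glutathione peroxidases 5, of the annexins 8 and of the small leucine-rich proteoglycans 6, and limma called none of them, nor Osr1 (slope −0.62, adjusted p = 0.464), a count near the share over all genes. Gpx1, a peroxidase of the cytosol, stayed between 5.03 and 6.60 in the 7 embryos and Gpx4 between 5.92 and 6.40. Among the annexins Anxa2 came nearest to a call (−1.28 per day, adjusted p = 0.0792), at 1.70, 3.87 and 5.09 in the E9.5 embryos and 1.03 to 1.71 later.

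Of the genes of gut identity and function, 3 were called over the same days, beside 0.655% of all genes. Of the 18 endoderm factors tested, 1 was called, the nuclear receptor Hnf4g (+0.92 per day, adjusted p = 0.028). Of the 16 enterocyte genes, Apoa1, an apolipoprotein, was called higher (+0.84, adjusted p = 0.0461) and Krt19, a keratin, lower (−1.23, adjusted p = 0.00581). None of the 14 region genes, the 10 genes of vitamin A handling or the 12 genes of motile cilia was called. The medians of the slopes were −0.38 for the region genes, 0.19 for the endoderm factors, 0.08 for the enterocyte genes, 0.03 for vitamin A handling and −0.11 for motile cilia, beside 0.00 over all genes tested. Without a filter on low values no gene was called (1281 at an unadjusted p under 0.05).

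Across the 4 organs, 6 of the 8 genes were largely found in intestinal epithelium. The intestinal epithelial cells, 109 of 1801 grouped cells of all 8 organs, held 94.7% of the UMIs of Nepn, 94.5% of Isx, 92.9% of Lgals2, 92.0% of 2610528A11Rik, 88.4% of Osr2 and 86.0% of Fam183b, but 23.0% of Gpx3 and 17.9% of Anxa5. Expressing cells were few among the other 1692 grouped cells for the first 6 genes, from 0.532% (Isx) to 6.44% (Fam183b). In contrast, 69.3% of them expressed Gpx3 and 75.1% Anxa5. The epithelial group of the study held 116 intestinal cells, so some of the 1692 were intestinal epithelial too. Nepn had 18068 UMIs in those 116 cells and 17444 in the 109, beside 978 in the 1692. At least 5 of the 8 genes were expressed together in 101 of the 109 intestinal epithelial cells, in 5 of the 74 intestinal mesenchymal cells and in 0 cells of the other 6 sets. These shares are a description, since the intestinal level chose the genes.

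**Figure D3:**
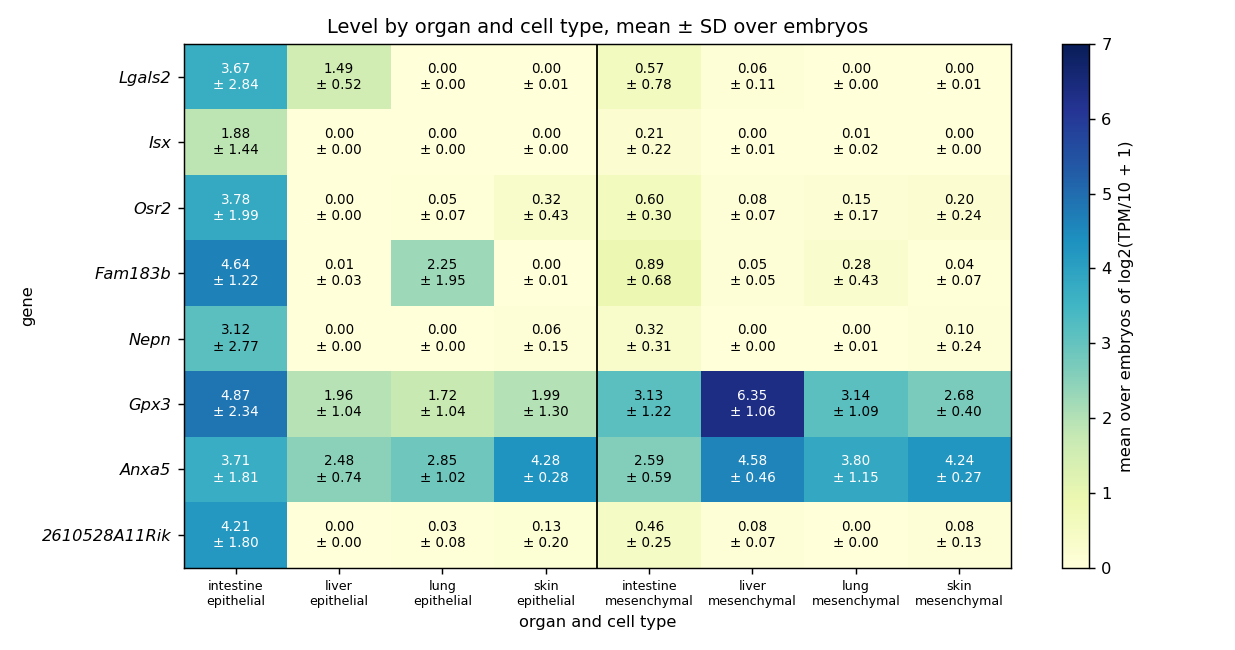
Mean ± SD over embryos of log2(TPM/10 + 1) for the 8 genes (rows) in epithelial and mesenchymal cells of 4 organs (columns; 7 embryos in intestine, 6 in liver epithelium, lung and skin, 3 in liver mesenchyme), darker cells being higher. Lgals2 in liver epithelium (1.49 ± 0.52) and Fam183b in lung epithelium (2.25 ± 1.95) are the values above 1 outside the intestine for the genes other than Gpx3 and Anxa5, which are present in every column.

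Isx and Nepn were at or near 0 in all 6 sets outside the intestine (means of 0.10 or less), as was 2610528A11Rik (0.13 or less). Osr2 was at most 0.32 ± 0.43 (SD, n = 6), in skin epithelium, where E10.5 embryo 1 was at 1.16 and the others at 0 to 0.35. In liver, lung and skin epithelium these 4 genes passed the filter for the slope on day in skin only, for Osr2 (−0.00 per day, adjusted p = 0.994) and 2610528A11Rik (+0.02, adjusted p = 0.93), where 3.15% of 11826 genes were called. For the others, under 3 cells of the organ expressed the gene.

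Lgals2 was also present, at a lower level, in liver epithelium, the hepatoblasts that descend from neighbouring endoderm. It was at 0.88, 1.78 and 1.28 in the E9.5 embryos, 1.31 and 1.33 at E10.5 and 2.38 in the E11.5 embryo. All 6 embryos held it, and the E11.5 embryo was highest. Its slope there, +0.43 per day (SE 0.27, adjusted p = 0.509), was not called, where 0.907% of 10806 genes were. Nor was its difference from liver mesenchyme (+1.43, SE 0.78, adjusted p = 0.316), where 5.8% of 15608 genes were. That SE was pooled over the 4 organs, intestinal epithelium included. Both count models, on summed UMIs, did call that difference (edgeR adjusted p = 0.00846, DESeq2 0.0236), and Lgals2 was higher in the epithelium in 3 of 3 embryos with both cell types.

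In lung epithelium Fam183b fell with time. Its level there was 5.01 (E9.5 embryo 2) and 3.81 (E9.5 embryo 3), then 2.39 and 2.02 at E10.5, and 0.28 and 0.00 at E11.5. The 3 days did not overlap. Expressing cells were 3 of 3 and 12 of 12 at E9.5, 3 of 5 and 7 of 11 at E10.5, and 2 of 18 and 0 of 3 at E11.5. The slope was −2.13 per day (SE 0.31, adjusted p = 1.94e-05, limma), where 0.238% of 10937 genes were called lower, and it was the 4th lowest of all genes tested. It was not called without the filter on low values (adjusted p = 0.158).

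In liver and skin epithelium Fam183b was at most 0.07 in any embryo, and 0 of 47 and 0 of 78 cells expressed it, so no test of its slope against those organs is given. The intestinal slope was +1.22, of the opposite sign, with no test because it was used to choose the gene.

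Erythroid markers moved with Fam183b in lung epithelium. They summed to 1772 and 636.0 TPM in the E9.5 embryos and to 0.488 to 123.4 TPM later, and 3 of the 4 tested, of 8 listed, were called lower (Hba-x −2.21, Hbb-y −2.14 and Hbb-bh1 −1.85 per day). In lung mesenchyme the same E9.5 embryos held 1953 and 624.1 TPM of these markers, with Fam183b at 1.13 and 0.01. The 4 lung bud markers (Nkx2-1, Etv5, Irx2 and Sftpc) were called in neither direction. The part of red cell RNA in the lung values was otherwise not tested.

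Within the lung, Fam183b was higher in epithelium than in mesenchyme, by 1.98 log2 units (SE 0.49, adjusted p = 0.0062, 1.95% of 15608 genes called higher) and in 5 of 6 embryos. At E11.5 both cell types were near 0, and without E9.5 embryo 3 the difference was 1.61 (adjusted p = 0.0767). Of the 9 motile cilia genes tested in lung epithelium none was called, and their median slope was −0.21 beside −0.04 over all genes.

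**Figure D4:**
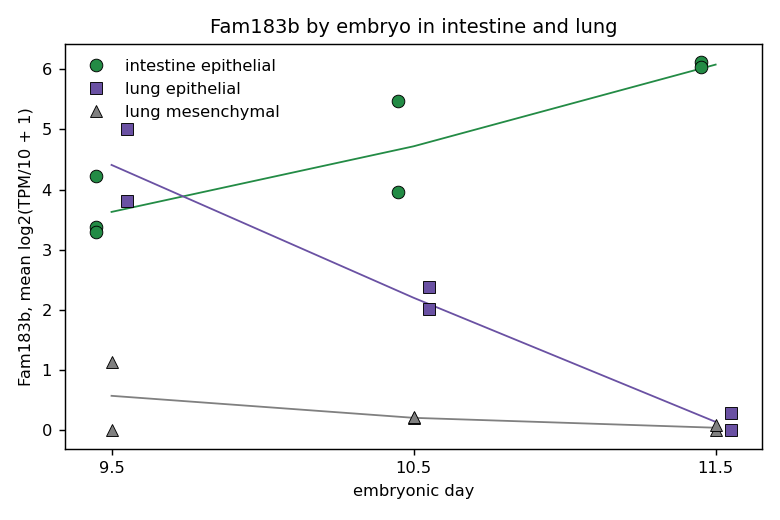
Mean log2(TPM/10 + 1) of Fam183b (y axis) by embryonic day (x axis), 1 point per embryo, in intestinal epithelial (circles), lung epithelial (squares) and lung mesenchymal cells (triangles), with lines through the means of each day. The intestinal values go from between 3.29 and 4.22 to 6.11, and the lung epithelial values from 5.01 and 3.81 to 0.28 and 0.00.

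Gpx3 and Anxa5 were expressed in every organ and cell type, and the side of the epithelial to mesenchymal difference depended on the organ. In the intestine Gpx3 was higher in epithelium in 7 of 7 embryos, by 0.03 to 3.20 log2 units, with the smallest gap at E11.5 (3.97% of genes were called in this contrast, which helped to choose the member). In mean TPM, E11.5 embryo 1 was instead higher in mesenchyme, at 88.3 against 80.2 TPM. In liver Gpx3 was lower in epithelium: 3.17, 3.30 and 1.90 in the E9.5 embryos, 1.0 and 1.07 at E10.5 and 1.33 at E11.5, against 6.97, 6.96 and 5.13 in the E9.5 mesenchyme. No liver epithelial value reached the mesenchymal range. The difference of −4.39 (SE 0.89, adjusted p = 0.000307) was called, as were 2.65% of genes in that direction, and within the 3 embryos with both cell types it was −3.80 to −3.23.

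Because liver mesenchymal cells came from E9.5 alone, day and cell type cannot be told apart in the unpaired value, and the values within E9.5 embryos hold the day fixed. The liver mesenchymal cells also held 124.2 to 327.8 TPM of the 4 mesothelial markers, against 0 to 43.32 in liver epithelium, and the part of mesothelial cells in the Gpx3 level was not tested.

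In lung, Gpx3 was likewise lower in epithelium, at 3.64 and 1.61, 0.96 and 1.11, and 0.94 and 2.04 in the embryos in order of day, against 5.0 and 3.24, 2.58 and 2.81, and 1.76 and 3.45 in mesenchyme. The ranges overlapped between embryos, but within each of the 6 embryos the epithelium was lower (differences of −1.70 to −0.83). With embryos unpaired the difference of −1.43 was not called (SE 0.72, adjusted p = 0.306), and with the embryo as a block it was (−1.43, adjusted p = 0.0118). In this direction 1.54% of genes were called in the unpaired fit. In skin the epithelium was lower in 5 of 6 embryos (−0.70, adjusted p = 0.755, where 3.71% of genes were called in either direction), and the difference between liver and skin was itself called (−3.69, SE 1.14, adjusted p = 0.0275; 7.13% of genes called).

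**Figure D5:**
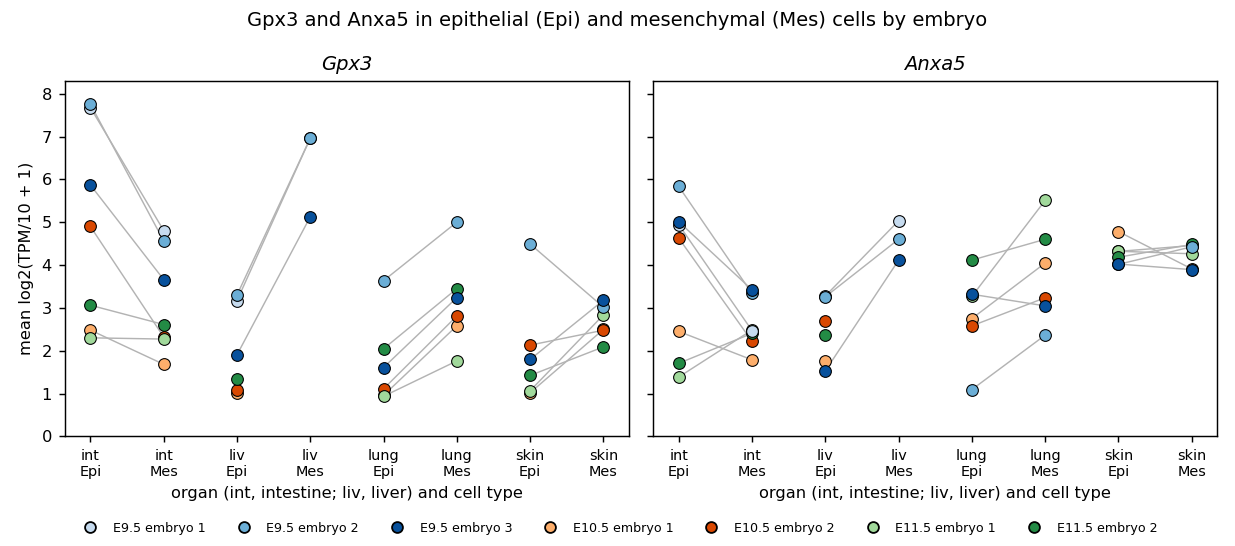
Mean log2(TPM/10 + 1) of Gpx3 and Anxa5 (y axis) in epithelial (Epi) and mesenchymal (Mes) cells of intestine, liver, lung and skin (x axis), 1 point per embryo coloured by embryo, with grey lines joining the cell types of an embryo. For Gpx3 all 7 intestinal lines fall from epithelium to mesenchyme and all 3 liver lines and 6 lung lines rise, and for Anxa5 the liver mesenchyme (4.11 to 5.03) lies above the intestinal mesenchyme (1.79 to 3.42).

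The slopes of Gpx3 on day in the other epithelia were smaller in size than the intestinal one and had the same sign; their difference from the intestine was not tested. In liver epithelium the slope was −0.94 per day (SE 0.29, adjusted p = 0.134), and in lung −0.57 (SE 0.34, adjusted p = 0.649; 0.311% of genes called in either direction). In skin epithelium it was −0.95 (SE 0.29, adjusted p = 0.0595): the E9.5 embryos were at 4.49 and 1.8, and the later ones at 1.02 to 2.13. None of the 3 was called. In liver the slope passed without E9.5 embryo 3 (−1.13, adjusted p = 0.0339). The skin value turned on the E9.5 embryos: it was −0.28 without embryo 2 (adjusted p = 0.766) and −1.44 without embryo 3 (adjusted p = 0.000883), and it also passed on the log2(TPM + 1) scale (adjusted p = 0.0245) and without E10.5 embryo 1 (adjusted p = 0.0349).

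Anxa5 in intestinal epithelium was above mesenchyme in 5 of 7 embryos and below it in both E11.5 embryos. In intestinal mesenchyme it was at 2.47, 3.34 and 3.42 at E9.5, 1.79 and 2.22 at E10.5 and 2.48 and 2.40 at E11.5. The skin mesenchyme held 3.89 to 4.48 and the liver mesenchyme 4.11 to 5.03, both above these values. Lung mesenchyme ran from 2.36 and 3.05 at E9.5 to 5.51 and 4.60 at E11.5 and overlapped them. At E9.5, the only day with liver mesenchyme, the means were 3.08 in intestine, 2.71 in lung, 4.16 in skin and 4.58 in liver. The fit against the mean of the other 3 organs had no term for day, so day and organ are not separated in it. It gave a difference of −1.62 (SE 0.43, adjusted p = 0.0175, 0.807% of 15608 genes called lower, 0.698% higher). This difference was no longer past the threshold without E9.5 embryo 1 (adjusted p = 0.064), E10.5 embryo 1 (0.083) or E10.5 embryo 2 (0.0766). It was −1.49 or larger in size in each of 17 alternatives.

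In liver, Anxa5 was lower in epithelium than in mesenchyme (−2.10 log2 units), at 3.28, 3.26 and 1.53 in the E9.5 epithelium against 5.03, 4.60 and 4.11 in the mesenchyme of the same embryos. The liver values did not overlap. The adjusted p of 0.0285 (SE 0.65) rose to 0.0727 once embryos were blocked (−1.91), and was 0.262 among HiSeq 4000 embryos alone. In lung (−0.95, adjusted p = 0.381) and skin (0.04, adjusted p = 1) it was not called. Nor did the Anxa5 slopes pass in liver (−0.22, adjusted p = 0.774), lung (+0.74, adjusted p = 0.458) or skin epithelium (+0.12, adjusted p = 0.839), the latter 2 being of the sign opposite to the intestine.

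The mesenchyme of the intestine, from the same embryos, held much less of the 6 intestinal genes. As a share of the epithelial mean TPM of the same embryo, the mesenchymal mean TPM had a median of 0.511% for Nepn, 0.688% for Lgals2, 2.08% for 2610528A11Rik, 2.76% for Osr2, 2.84% for Isx and 3.78% for Fam183b. The 7 epithelial markers in these mesenchymal cells had medians of 1.25% for Cdh1, 2.15% for Cldn6, 2.34% for Cldn7, 3.41% for Epcam, 7.26% for Krt18, 10.1% for Krt8 and 10.8% for Spint2. The keratins reached 53.5% and 59.9% in E9.5 embryo 1. Gpx3 and Anxa5 had medians of 25.7% and 22.8%.

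None of the 8 slopes on day was called in intestinal mesenchyme, where 0.496% of 11283 genes were, although each had the sign of the epithelial slope. Lgals2 came nearest (+0.71 per day, SE 0.17, adjusted p = 0.0601). It was at 0, 0.14 and 0 at E9.5, 0.28 and 0.52 at E10.5, and 2.21 and 0.81 at E11.5, so E11.5 embryo 1 stood well above the rest. The Lgals2 slope passed with DESeq2 (adjusted p = 0.0175), on the log2(TPM + 1) scale (0.0178), with a stricter filter on low values (0.0465) and without E11.5 embryo 2 (0.0421).

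Fam183b in this mesenchyme went from 0, 0.35 and 0.39 to 1.16 and 0.98 and then 1.42 and 1.94, with no overlap of days (+0.72, SE 0.19, adjusted p = 0.102, and 0.0497 on the log2(TPM + 1) scale). Gpx3 stood at 4.81, 4.57 and 3.66 at E9.5, 1.68 and 2.32 at E10.5 and 2.27 and 2.61 at E11.5, so E9.5 was apart from the later days as in the epithelium. Its slope of −1.03 (SE 0.27, adjusted p = 0.103) passed with edgeR (0.023), DESeq2 (0.000173) and cells thinned to 100000 UMIs (0.0345). The other 5 slopes lay between −0.36 (Anxa5) and +0.30 (Osr2). The summed epithelial markers in these cells went from 725.8 to 1342 TPM at E9.5 to 142.9 to 285.0 TPM later, and 2 of the 7 were called lower (Krt8 −1.83 and Krt18 −1.71 per day). Epcam was instead at 12.7, 21.6 and 31.5 TPM at E9.5 and 26.5 to 46.2 TPM later, and Cldn7 at 1.90, 8.56 and 9.04 TPM at E9.5 and 9.61 to 34.3 TPM later. Epithelial and mesenchymal cells of an embryo shared libraries, and the part of RNA passed between cells was not tested.

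Other genes did change in this mesenchyme. The Hox genes Hoxc10 (−1.61), Hoxd9 (−1.38) and Hoxa9 (−1.28 per day) were called lower among 17 region genes tested. Among genes of vitamin A handling, Aldh1a2, which makes retinoic acid, was called higher (+3.02). For the 8 genes, the levels in intestinal mesenchyme were not called above those of the other 3 mesenchymes by limma (largest for Fam183b, +0.77, adjusted p = 0.365). The count model of edgeR called Lgals2, Isx, Nepn, 2610528A11Rik and Fam183b higher there (adjusted p = 9.72e-05 to 0.0109), and DESeq2 called Lgals2, 2610528A11Rik and Fam183b. Of the 74 intestinal mesenchymal cells, 29 expressed Fam183b, 16 expressed Lgals2, 9 expressed Nepn, 6 expressed 2610528A11Rik and 4 expressed Isx. The calls for Nepn, 2610528A11Rik and Isx thus rest on few expressing cells.

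Each member was compared with every other gene over the 47 embryo means of the 8 sets, which share embryos, libraries and depth, and genes among the 3 of highest Pearson correlation are given as most like it. Lgals2 was nearest to Hnf4g (r = 0.94) and Gucy2c (0.91). Isx was nearest to Rnf186 (0.98) and Slc17a4 (0.95), and Osr2 to Gucy2c (0.97), Mro (0.96) and Slc17a4 (0.96). Gucy2c, the intestinal receptor guanylate cyclase, and Slc17a4 thus recurred among the genes with positive slopes. The 47 means include the intestinal epithelial values that chose the members, and Lgals2, Isx and Osr2 also correlated with each other (r = 0.86 to 0.93). Shared neighbours therefore follow in part from the choice and are a description only.

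Nepn was nearest to Krtap17-1 (0.95), Clgn (0.94) and Tex14 (0.92), and 2610528A11Rik to Clgn (0.93), Kbtbd11 (0.92) and Kcnk2 (0.91). Fam183b was nearest to Lad1 (0.91), Shh (0.90), the hedgehog signal of gut and lung epithelium, and 1700011H14Rik (0.88). For Gpx3 (Map1b 0.77, Cd81 0.77 and Amph 0.75) and Anxa5 (Decr2 0.72, Myl12a 0.71 and Sparc 0.70) no gene came as near.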

How the data were processed

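Per the labels and the methods of the study, single cells of C57BL/6J embryos were picked by hand, tagged with cell barcodes and unique molecular identifiers (UMIs) by a 3′-end version of STRT, aligned with TopHat2 2.0.12 to mm10 and counted per gene with HTSeq, whose version is not given in the sources used here. The values the authors deposited are CPM (named TPM there), that is, how many of each 1000000 UMIs in a cell belong to a gene. Multiplied by the UMI total of the cell, 100% of values gave whole UMIs (tolerance 0.05). Of 1916 cells, the 1819 kept by the study (at least 2000 genes) were used, less 14 that repeat another column of their sample exactly, and their organ and type are those of the study's annotation.

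Embryo means of log2(TPM/10 + 1), over at least 3 cells, were fitted with limma 3.58.1 (trend, R 4.3.3) for genes at 1 or more in at least 3 cells, in each epithelium on day, in intestinal mesenchyme on day, and over all 47 means between cell types and organs. Columns were mapped by label, with 0 unmapped. The fits were tested on simulated data. Alternatives were edgeR 4.0.16 and DESeq2 1.42.0 on summed UMIs, other filters and pseudocounts, thinning to 100000 UMIs (570 of 638 cells kept), HiSeq 4000 embryos, the embryo as a replicate block, each embryo left out, and, chosen after seeing the data, second copies of repeated columns kept. By the labels, cell types with the same number come from the same embryo. Deviations of the paired sets correlated at 0.0939 to 0.4725 (22 pairs, 19 over 0.1).

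The members and the gene lists were chosen with earlier results of these data known. Genes named are the members, up to 4 called genes per list with examples not called, and the 3 genes most correlated with each member, some of which are not reported here. A UMI marks a molecule, so depth limits low values: 1 UMI is the smallest step of a cell. Sequences are those of RefSeq for GRCm38.p6, the build of mm10. Embryos are separate animals, and the slopes on day take the spread between them as the error. With 6 or 7 means per slope, limma moderates this spread toward that of other genes of like level. The SE and p of a slope therefore do not measure the spread of that gene alone. P-values of the fit over 47 means rest on a spread pooled over all sets. That fit has no term for day and, except with the block, takes the sets of an embryo as independent. Its spread therefore also holds the change over days.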

Additional observations from a re-analysis of the deposited data

Results flagged for a closer look

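Across the days, 48 groups of 4 to 7 embryo values were looked at for an embryo far from the others, and 18 held one by Dixon's test, which chance gives in about 1 in 20 groups. Most are genes at 0 in nearly every embryo, where a few UMIs set a value apart. All values are in log2(TPM/10 + 1).

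The largest were Gpx3 in skin epithelium of E9.5 embryo 2, at 4.49 with the next embryo at 2.13 (2063 UMIs in 7 cells), Lgals2 in intestinal mesenchyme of E11.5 embryo 1, at 2.21 with the next at 0.81 (6 of 7 cells expressing), Osr2 in skin epithelium of E10.5 embryo 1, at 1.16 (146 UMIs, 2 of 7 cells), and Fam183b in lung mesenchyme of E9.5 embryo 2, at 1.13 with the next at 0.22 (673 UMIs, 11 of 30 cells). In that same lung mesenchyme of E9.5 embryo 2, Isx was at 0.0472 (15 UMIs, 1 cell), Nepn at 0.0174, Lgals2 at 0.006 and 2610528A11Rik at 0.0044, each with 1 UMI but for Isx. Fam183b was at 0.0684 and Osr2 at 0.0119 in liver epithelium of that embryo.

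E9.5 embryo 3, whose skin was pooled with its intestine and somite in 1 sample, stood apart in skin for Nepn, at 0.5964 in mesenchyme (23 UMIs) and 0.3704 in epithelium (17 UMIs), for Lgals2 at 0.0171 and 0.0153, and for Fam183b in epithelium at 0.0179. The part of the shared sample in these values was not tested. The others were Fam183b in skin mesenchyme of E10.5 embryo 2 at 0.1816 (5 UMIs), and in lung epithelium of E11.5 embryo 1 2610528A11Rik at 0.1915 (26 UMIs in 1 cell) and Osr2 at 0.1812 (3 UMIs).

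Differences of effects between liver, lung and skin were also tested, and are given only where epithelial cells of both organs expressed the gene. Of these, 1 was called. The epithelial to mesenchymal difference of Gpx3 differed by −3.69 between liver and skin (adjusted p = 0.0275, limma over the embryo means), where 7.13% of all genes were called. Liver mesenchyme came from E9.5 alone, so day and organ are not separated in this difference.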

How the results depend on the processing

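No value of the 8 genes that was called changed its sign. The 50 values with a test had 822 alternatives, of which 786 gave the same call, 13 lost it and 23 gained it. The 16 described values kept their sign in all 263, of which 56 moved the value by more than its standard error. The filter of the fit between cell types counted cells of all sets, so some of the 50 values compare cells that held almost none of the gene. Nepn in liver, for example, had 0 UMIs in both cell types. For such values the same call was fixed in advance, and the 786 include them. With the embryo as a replicate block, Anxa5 in liver was no longer called (−1.91, adjusted p = 0.0727) and Gpx3 in lung was (−1.43, adjusted p = 0.0118), and the block changed no other call of the 8 genes. The block moved the counts of called genes to 248 (intestinal against other mesenchyme), 635 (intestine), 929 (liver), 576 (lung) and 595 (skin).

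Counts over all genes moved more. Without a filter on low values, limma called 0 slopes in epithelium of intestine, liver and skin and in intestinal mesenchyme (1281, 2301, 1943 and 1169 at an unadjusted p under 0.05) and 1 in lung. In epithelium, edgeR called 53 slopes in intestine (6 higher and 47 lower, against 31 and 50), 28 in liver, 7 in lung and 183 in skin (66 and 117, against 94 and 278), and DESeq2 260 (58 and 202), 219 (98 and 121, against 59 and 39) and 84 (47 and 37, against 8 and 26), with 534 in skin (267 and 267). In intestinal mesenchyme DESeq2 called 218 (82 and 136, against 27 and 29) and edgeR 39 (3 and 36). The 5 HiSeq 4000 embryos gave 38 slopes in liver, 216 in skin and 30 in intestinal mesenchyme, and thinning gave 22 in lung.

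For intestinal against other mesenchyme, log2(TPM + 1) gave 500 genes, edgeR 631 (410 and 221, against 109 and 126) and DESeq2 523. For epithelium against mesenchyme, log2(TPM + 1) gave 1207 in intestine, 1379 in liver, 939 in lung and 1006 in skin, edgeR 1561 in intestine and 950 in lung (434 and 516, against 304 and 240), DESeq2 1394 in intestine and 1070 in lung, and the HiSeq 4000 embryos 560 in liver. In liver, edgeR and DESeq2 split 298 to 709 and 501 to 717, against 492 to 414.

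Leaving out each embryo in turn gave 41 to 99 slopes in intestinal epithelium (41 without E11.5 embryo 1, 52 without E9.5 embryo 1), 11 to 252 in liver (11 without E11.5 embryo 2, 56 and 252 without E9.5 embryos 2 and 3), 21 to 72 in lung (21 without E11.5 embryo 2, 53 without E10.5 embryo 1, 72 without E9.5 embryo 3), 137 to 534 in skin (137 and 187 without E11.5 embryos 1 and 2, 216 without E9.5 embryo 2) and 16 to 109 in intestinal mesenchyme (16 and 17 without E11.5 embryos 1 and 2, 25, 37 and 109 without E9.5 embryos 1, 2 and 3). The cause was not tested. Depth limits the genes listed at or near 0, where a cell's smallest step is 1 UMI.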

Other observations

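Outside the 4 organs with annotated epithelium, Gpx3 and Anxa5 were also present in mesoderm-derived cells of the heart, at 5.55 and 4.78 over 6 embryos on the log2(TPM/10 + 1) scale. Heart cells are among the cells other than the 109 annotated intestinal epithelial cells in the shares of UMIs and of expressing cells above.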
